A study of Mus musculus with 29 samples.

Results

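The miRNAs that make up serum and skeletal muscle of old mice were described from 4 old serum and 5 old muscle libraries, 9 of the 29 in the study. They were chosen by their labels alone, and measured values played no part in the choice. The mice were C57BL/6, aged 24 months and labelled as controls, and the muscle was tibialis anterior, a mainly fast-twitch muscle that lifts the foot. The study also sequenced both sources from control mice of 6 months and from mice of 6 months with disuse-induced atrophy, with 5 libraries in each of these 4 groups. No label says that the libraries of a group come from separate animals, or that a serum and a muscle share an animal. The p-values therefore reflect only how far these libraries scatter, which may be technical. Muscle and serum RNA were extracted with different reagents and entered the library preparation in very different amounts, so source, extraction and input cannot be told apart.

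MicroRNAs are short RNAs cut from a hairpin precursor. Either arm of the hairpin, named 5p or 3p, can be loaded into an Argonaute protein, and the seed, bases 2 to 8 of the loaded strand, selects the messenger RNAs that it represses. Skeletal muscle is known for a small group of muscle-restricted miRNAs that depend on myogenic transcription factors. Serum carries miRNAs in vesicles, lipoproteins and Argonaute complexes that are released by blood cells, endothelium, liver and many other tissues.

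The sequences below are those of miRNAs that set the sources apart, with the seed in capitals, as RefSeq gives them on GRCm38.p6, the build that mm10 names. Of 316 miRNAs tested, 275 matched a RefSeq entry. The first set holds miRNAs that were abundant or far higher in serum. It begins with groups that share a seed: miR-10a with miR-10b, miR-192 with miR-215, miR-141 with miR-200a, and miR-200b with miR-429.
miR-10a-5p: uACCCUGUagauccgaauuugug
miR-10b-5p: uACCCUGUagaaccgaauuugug
miR-192-5p: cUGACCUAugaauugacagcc
miR-215-5p: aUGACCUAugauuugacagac
miR-141-3p: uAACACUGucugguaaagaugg
miR-200a-3p: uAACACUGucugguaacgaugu
miR-200b-3p: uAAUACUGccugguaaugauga
miR-429-3p: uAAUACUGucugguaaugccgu
miR-191-5p: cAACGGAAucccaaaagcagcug
miR-146a-5p: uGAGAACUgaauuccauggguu
miR-184-3p: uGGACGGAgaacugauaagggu
miR-205-5p: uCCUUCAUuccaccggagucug

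The second set holds miRNAs that were called higher in muscle. Some were also abundant in serum, where miR-181a-5p ranked 16 and miR-26a-5p ranked 19. The let-7 sequences share a seed, miR-196a-5p and miR-196b-5p share another, and let-7d-3p is shown because it comes from the hairpin of let-7d-5p.
let-7a-5p: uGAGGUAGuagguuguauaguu
let-7c-5p: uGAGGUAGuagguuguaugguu
let-7d-5p: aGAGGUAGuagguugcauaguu
let-7d-3p: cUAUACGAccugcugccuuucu
miR-196a-5p: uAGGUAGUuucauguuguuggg
miR-196b-5p: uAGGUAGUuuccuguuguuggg
miR-26a-5p: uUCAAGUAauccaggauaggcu
miR-149-5p: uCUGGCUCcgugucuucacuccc
miR-133b-3p: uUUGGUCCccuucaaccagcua
miR-181a-5p: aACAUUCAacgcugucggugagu

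The third set holds miRNAs with a shared seed whose members were called in opposite directions between the sources.
miR-16-5p: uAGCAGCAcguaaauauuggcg
miR-15b-5p: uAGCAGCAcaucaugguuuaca
miR-148a-3p: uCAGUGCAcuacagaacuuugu
miR-148b-3p: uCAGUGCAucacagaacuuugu
miR-30a-5p: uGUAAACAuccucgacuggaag
miR-30e-5p: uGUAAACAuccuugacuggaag
miR-30c-5p: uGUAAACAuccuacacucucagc

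Several of these genes lie in or beside protein-coding genes. The mature miR-10a-5p is at chr11:96317186-96317208, between annotated genes in the Hoxb cluster, and miR-10b-5p is at chr2:74726074-74726096, in introns of Hoxd3 and Hoxd4. A copy of miR-196a-5p is at chr15:102973365-102973386 in an intron of Hoxc5, and miR-196b-5p is at chr6:52230129-52230150 in an exon of Hoxa9. miR-149-5p is at chr1:92850381-92850403, in an intron of Gpc1. miR-200a-3p, miR-200b-3p and miR-429-3p lie together in an intron of Ttll10, with miR-429-3p at chr4:156053916-156053937.

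Muscle libraries were deeper than serum libraries. Old muscle libraries 1 to 5 held 5943445, 2006673, 2825032, 1349168 and 3338313 miRNA counts, and old serum libraries 1 to 4 held 79646, 260729, 176948 and 45176. Between 467 and 546 miRNAs were counted in a muscle library and between 229 and 375 in a serum library. A count of 0 allows up to 0.505 to 2.22 CPM (counts scaled to a library total of 1000000) in a muscle library and up to 11.5 to 66.4 CPM in a serum library, taking 3 counts as the limit. Pairs of muscle libraries correlated at 0.982 to 0.990 (Pearson's r of log2 CPM across miRNAs) and pairs of serum libraries at 0.883 to 0.923. Of the 695 miRNAs with complete values, 648 were counted in either source, 428 in both, 174 only in muscle and 46 only in serum.

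Old serum and old muscle differed in most of the miRNAs that could be tested. Of 316 tested, 219 (69.3%) differed by edgeR's quasi-likelihood test, of which 78 (24.7%) were higher in serum and 141 (44.6%) higher in muscle. The 78 held 81.7% ± 4.63 of serum counts (SD, n = 4) and 12.2% ± 1.81 of muscle counts (SD, n = 5). The 141 held 78.5% ± 2.01 of muscle counts and 8.18% ± 2.21 of serum counts. The CPM of the sources did not overlap for 81 miRNAs that were higher in serum (25.6%) and 110 that were higher in muscle (34.8%), or 60.4% in all. With miRNAs that lacked a count in a source set at their bound, 82 of the called miRNAs differed by more than 3 on the log2 scale, 37 of them higher in serum. A lower level in bulk samples cannot tell fewer cells of a type, or fewer of their carriers in serum, from less RNA per cell.

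The split depends on depth and scaling. With every library thinned to 45176 counts, 112 miRNAs were tested and 96 were called, 46 higher in serum and 50 in muscle. Over the tested miRNAs together, the log2 fold change had a median of -0.87 with TMM factors, -0.48 with library totals alone and -1.17 with totals that leave out the most abundant miRNA of each source. The zero of the fold changes therefore moves with the scaling, and each is to be read against the median of -0.87, which was -0.80 with miRNAs that lacked a count in a source set at their bound. Fold changes use TMM factors and the CPM given use library totals, so a fold change need not equal the ratio of the CPM beside it.

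**Figure D1:**
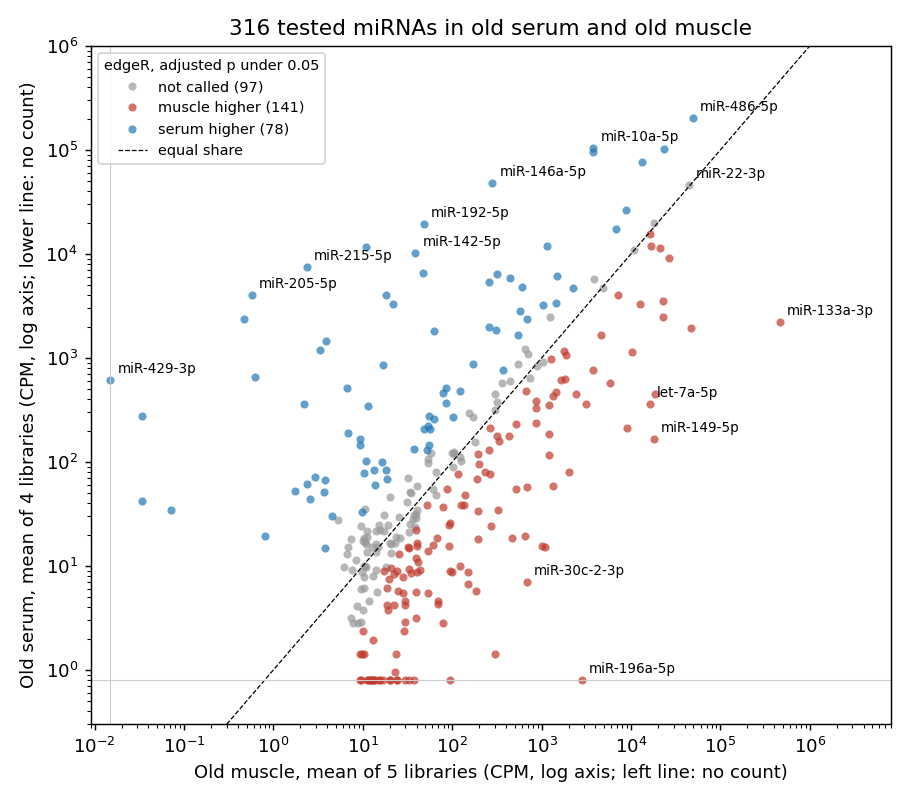
Mean CPM of each of the 316 tested miRNAs in 5 old muscle libraries (horizontal, log axis) and 4 old serum libraries (vertical, log axis), coloured by the edgeR call; miRNAs without a count in a source are drawn on the grey lines. The 78 serum-higher miRNAs lie above the dashed line of equal share and reach miRNAs that muscle all but lacked, and miR-133a-3p stands far to the right with 462561 CPM in muscle and 2227 CPM in serum.

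Muscle was dominated by a single miRNA and serum by a few. miR-133a-3p, which is restricted to striated muscle and damps the proliferation of myoblasts, held 46.3% ± 5.68 of muscle counts (SD, n = 5) and 0.223% ± 0.0590 of serum counts (SD, n = 4). It took 506354, 434153, 521908, 381219 and 469171 CPM in old muscle 1 to 5 and 1733, 1699, 2730 and 2745 CPM in old serum 1 to 4. It was the most abundant miRNA of each muscle library and ranked 43 by mean in serum, 278-fold lower (log2 -8.12 ± 0.31 SE, adjusted p 1.61e-15).

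By mean, the most abundant miRNA of serum was miR-486-5p, an miRNA from an intron of the ankyrin gene Ank1 that is abundant in both red cells and muscle. Its CPM were 121086, 261831, 232695 and 187577 in serum and 39709, 49711, 44024, 52708 and 60194 in muscle. It led 3 of the 4 serum libraries, and in old serum 1 miR-10b-5p stood above it at 123584 CPM. The sources did not overlap, and it was 3.28-fold higher in serum (log2 1.71 ± 0.27 SE, adjusted p 8.71e-06). By mean it ranked 2 in muscle, at 4.93% of counts, far below miR-133a-3p. miR-3107-5p is a copy from the opposite strand of the same locus, and the sequences of the pair were not compared here. The ratio of miR-486-5p to miR-3107-5p was 1.89 to 2.02 in serum and 2.06 to 2.17 in muscle, and how reads were divided between them is uncertain. Together they held 30.2% ± 9.18 of serum counts and 7.25% ± 1.18 of muscle counts.

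The miR-10 pair came next in serum. miR-10a-5p and miR-10b-5p, encoded in Hox clusters and sharing the seed shown above, held 19.96% ± 5.51 of serum counts and 0.757% ± 0.326 of muscle counts. miR-10a-5p stood at 117281, 129997, 62617 and 105144 CPM in serum and 3352, 4400, 1999, 6317 and 2825 CPM in muscle. It was 22.2-fold higher in serum (adjusted p 8.67e-11), with old serum 3 the lowest serum library and old muscle 4 the highest muscle library. miR-10b-5p followed the same order of sources, at 19.8-fold (adjusted p 6.22e-11). The ratio of miR-10a-5p to miR-10b-5p was 0.926 to 1.43 in serum and 0.836 to 1.11 in muscle, so the balance of the pair overlapped between the sources.

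Other leaders of serum differed widely in how far they exceeded muscle. miR-191-5p, a broadly expressed miRNA that is often used as a serum reference, held 78183, 80122, 69003 and 78626 CPM in serum, with the smallest relative spread of the 10 most abundant there, and 9374 to 15967 CPM in muscle. It was 4.55-fold higher in serum (adjusted p 1.91e-08). miR-146a-5p, a brake on innate immune signalling through NF-kappaB, held 62112, 44525, 39594 and 46131 CPM in serum against 174, 199, 336, 397 and 290.3 CPM in muscle. It ranked 6 in serum and 88 in muscle, a 133-fold difference (adjusted p 9.16e-15). miR-30d-5p was 2.32-fold higher in serum (26705 ± 4744 CPM, n = 4, against 8872 ± 2397 CPM, n = 5). miR-192-5p, an miRNA of liver, gut and kidney, ranked 10 in serum and 154 in muscle.

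**Figure D2:**
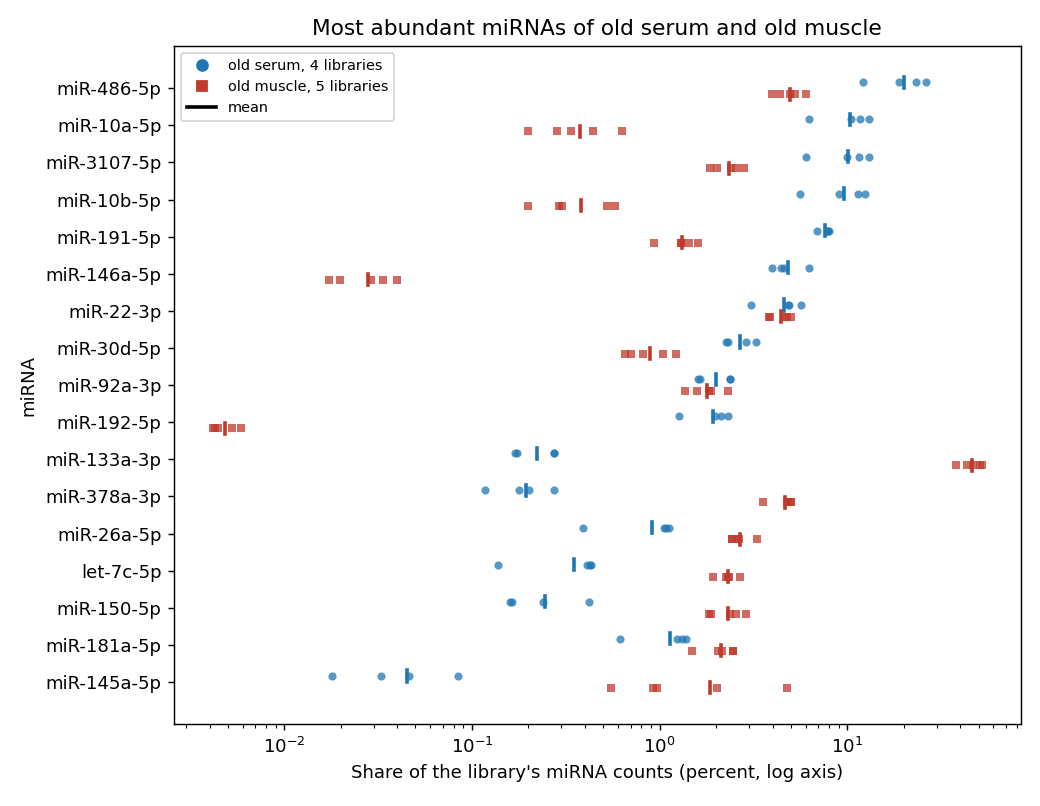
Share of each library's miRNA counts (percent, log axis) for the 17 miRNAs that are among the 10 most abundant of old serum or of old muscle; circles are the 4 serum libraries, squares the 5 muscle libraries and bars the means. Only miR-22-3p and miR-92a-3p overlap between the sources, and the widest gaps are those of miR-133a-3p, miR-146a-5p and miR-192-5p.

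Below miR-133a-3p, the most abundant miRNAs of muscle were less restricted to it. miR-378a-3p, encoded in the gene of the mitochondrial coactivator PGC-1beta, held 49906, 50291, 35609, 47944 and 48544 CPM in muscle and 2737, 1177, 1791 and 2014 CPM in serum. It was 32.9-fold higher in muscle (adjusted p 2.33e-13). miR-26a-5p, from introns of the phosphatase genes Ctdsp2 and Ctdspl, held 26324, 25966, 24386, 33086 and 24360 CPM in muscle and 11200, 3912, 10529 and 10758 CPM in serum. The difference was 4.07-fold (adjusted p 1.54e-07), with old serum 2 well below the other serum libraries.

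miR-150-5p, a lymphocyte miRNA, was higher in muscle than in serum: 18276, 23687, 25499.9, 28690.3 and 18839 CPM against 4194, 1626, 2391 and 1594 CPM, or 12.6-fold (adjusted p 1.20e-10). miR-181a-5p was 2.54-fold higher in muscle (21211 ± 3972 CPM against 11391 ± 3564 CPM, adjusted p 2.00e-05). miR-145a-5p, a smooth muscle miRNA, had the largest relative spread in muscle of the 10 most abundant there, with 9181, 20338, 9682, 47679 and 5525 CPM. All 5 exceeded the serum values of 465, 180, 328 and 841 CPM, and the call was 57.2-fold higher in muscle (adjusted p 6.62e-09). Old muscle 4 had more than any other library.

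Some of the most abundant miRNAs were not called different between the sources. miR-22-3p, abundant in heart and skeletal muscle, held 56374, 30633, 49099 and 48145 CPM in serum and 50394, 47443, 46655, 38403 and 38497 CPM in muscle. The sources overlapped and the difference was not called (log2 -0.38, 95% interval -0.82 to 0.05, adjusted p 0.106). miR-92a-3p (log2 -0.25, -0.69 to 0.20), miR-125b-5p (log2 -0.47, -1.05 to 0.11), miR-143-3p (log2 -0.57, -1.23 to 0.10) and miR-29a-3p (log2 0.16, -0.30 to 0.62) did not pass either. The signs of miR-22-3p, miR-92a-3p, miR-125b-5p and miR-29a-3p changed under another scaling, filter or thinning, so no direction is given for them. The lists of the 10 most abundant shared 3 miRNAs between the sources (miR-486-5p, miR-3107-5p and miR-22-3p), and the lists of 20 shared 10. Summing the smaller of the mean shares over all miRNAs gave a common share of 29.6%, or 40.9% once miR-133a-3p was left out.

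The sources were compared for how far their counts were concentrated in a few miRNAs. The most abundant miRNA of a library took 12.4% to 26.2% of serum counts (mean 20.1%) and 38.1% to 52.2% of muscle counts (mean 46.3%). These ranges did not overlap (exact permutation test, 2-sided, p 0.0159, the smallest that 4 against 5 allows; adjusted p 0.111 over 7 measures). Counted together, miR-486-5p and miR-3107-5p held 18.1% to 39.3% of serum counts, a range that overlaps that of muscle. The gap therefore depends on how reads were divided between them. The measures were not recomputed with the pair merged. The 10 most abundant took 73.9% ± 6.12 of serum counts and 74.6% ± 3.25 of muscle counts, a difference within the spread of the libraries (exact permutation p 0.873). The effective number of miRNAs, the exponential of the Shannon entropy, was 23.2 ± 5.22 in serum and 14.3 ± 2.91 in muscle (exact permutation p 0.0317, adjusted 0.111). Without miR-133a-3p, miR-486-5p and miR-3107-5p the direction turned: serum minus muscle was -10.2 for the effective number, 16.6 percentage points for the 5 most abundant and 11.2 for the 10 most abundant (exact permutation tests, adjusted p 0.0278 each). At 45176 counts each, 242 ± 21.3 miRNAs were detected in serum and 251 ± 10.2 in muscle (exact permutation p 0.413). With all miRNAs kept, none of the 7 measures passed after adjustment.

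The labelled tissues were checked against cell type markers, and lists of miRNAs by cell type or family were then counted. The lists were not tested as sets. All 10 tested members of the striated muscle list differed, beside 69.3% of all tested miRNAs. Of the 10, 8 were higher in muscle, beside 44.6% of all tested. The exceptions were miR-486-5p and miR-3107-5p, which also stand in the erythroid list. The list held 53.8% ± 5.11 of muscle counts and 30.5% ± 9.19 of serum counts, and 30.2% of the serum counts were those exceptions. miR-1a-3p, made from the same transcripts as miR-133a-3p, held 639.5, 738.5, 455, 752 and 713 CPM in muscle and 0.0, 49.9, 5.65 and 22.1 CPM in serum. It was 31.5-fold higher in muscle (adjusted p 1.47e-08), from only 15 serum counts in all. Within muscle, miR-1a-3p ranked 65 at 0.0660% of counts, beside 46.3% for miR-133a-3p. The cause of this gap between miRNAs of the same transcripts was not tested.

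miR-133b-3p and miR-206-3p, from a shared noncoding RNA of satellite cells and regenerating fibres, were 95.9-fold and 15.1-fold higher in muscle, from 8 and 7 serum counts. miR-499-5p, from an intron of the slow myosin gene Myh7b, had 566 counts in muscle and 0 in serum. Against the limit of 3 counts over the 4 serum libraries, it was at least 6.86-fold higher in muscle. miR-208b-3p, from an intron of the slow myosin gene Myh7, had 76 muscle counts and 0 serum counts and was too low to test. The muscle libraries thus carried the markers of their label, and miR-133a-3p was present at a low level in all 4 serum libraries.

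Most red cell miRNAs were higher in serum, and leukocyte miRNAs were called in both directions. Of 9 tested in the erythroid list, 7 were higher in serum, 0 in muscle and 2 were not called (24.7% and 44.6% of all tested miRNAs were higher in serum and in muscle), with a median log2 fold change of 2.95 beside -0.87 over all tested miRNAs. miR-451a, which is cut by Argonaute itself and marks red cells, held 6554, 4058, 8138 and 7747 CPM in serum and 39.9, 58.3, 30.1, 61.5 and 43.4 CPM in muscle (107-fold, adjusted p 6.41e-15). miR-144-3p and miR-144-5p, from the same transcript, were 20.8-fold and 14.1-fold higher in serum. miR-16-5p was 7.74-fold higher in serum, at 11877 ± 2035 CPM against 1155 ± 289 CPM.

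Of 11 leukocyte and platelet miRNAs, 7 were higher in serum, 3 higher in muscle and 1 was not called, beside the same 24.7% and 44.6% of all tested. miR-142-5p, made in all blood cell lineages, held 14677, 8921, 10602 and 6220 CPM in serum and 20.7, 37.9, 76.8, 25.9 and 31.2 CPM in muscle (197-fold, adjusted p 2.67e-13). miR-223-3p, a neutrophil and platelet miRNA, was 38.4-fold higher in serum. The 3 that were higher in muscle were miR-150-5p, miR-155-5p, an miRNA of activated immune cells (2043 ± 632 CPM in muscle, 80.2 ± 63.8 CPM in serum), and miR-342-5p. The leukocyte and platelet list held 2.61% ± 0.515 of muscle counts and 6.64% ± 1.42 of serum counts, and the erythroid list 9.22% ± 1.44 and 34.7% ± 8.88. Most of the erythroid share was that of miR-486-5p and miR-3107-5p, which also stand in the striated muscle list. The pair held 7.25% of muscle counts and 30.2% of serum counts. The red cell marker miR-451a held 0.00466% of muscle counts and 0.662% of serum counts. What part blood in the muscle had in these values was not tested.

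Among the named miRNAs with a count in both sources, the widest differences were in those of epithelia, liver and gut. The limit of 3 counts over all libraries of a source was 0.194 CPM in muscle and 5.33 CPM in serum. Differences toward muscle could therefore be measured less far, and that of miR-196a-5p, without a serum count, has only a lower bound. All 10 tested members of the epithelium and pancreas list and all 5 of the liver and gut list were higher in serum. This compares with 24.7% of all tested miRNAs, and the median log2 fold changes were 9.48 and 8.25. The lists hold 18 and 10 miRNAs. The filter keeps a miRNA that reaches its minimum in either source. Members near 0 in muscle, such as miR-429-3p, could therefore be tested only through serum, and only as higher there. The epithelial and pancreatic list held 2.19% ± 0.973 of serum counts, from 0.767% in old serum 2 to 2.88%, and 0.00247% ± 0.000669 of muscle counts. miR-205-5p, an miRNA of stratified epithelia, held 4897, 1312, 5114 and 4737 CPM in serum and 1.35, 0.498, 0.708, 0.0 and 0.300 CPM in muscle. This was a 3427-fold difference (log2 11.74 ± 0.48 SE, adjusted p 3.87e-15), with only 12 counts in muscle.

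The miR-200 family keeps epithelial cells from turning mesenchymal by repressing Zeb1 and Zeb2. miR-141-3p held 2712, 1519, 2600 and 2701 CPM in serum and from 0.0 to 0.997 CPM in muscle (log2 11.67 ± 0.40 SE, adjusted p 4.95e-16). miR-429-3p held 728, 245, 938 and 531 CPM in serum and had no count in 5 muscle libraries. Set against the limit of 3 counts over those libraries, it was at least 2859-fold higher in serum. miR-200a-3p had 133 serum counts and 1 muscle count, and miR-200b-3p 265 and 9. miR-200c-3p had 142 serum counts and 32 muscle counts. Old serum 2 was the lowest serum library for each of these 5, and muscle stayed at or near 0.

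miR-184-3p, known from cornea and other epithelia, held 11476, 2946, 16197 and 16513 CPM in serum and 6.48 to 14.5 CPM in muscle (778-fold, adjusted p 1.75e-14). miR-375-3p, an islet and epithelial miRNA, was 252-fold higher in serum, at 1181 ± 501 CPM against 3.36 ± 0.896 CPM. The pancreatic miR-216a-5p and miR-217-5p had 1 and 2 serum counts and could not be tested. miR-96-5p, which is transcribed with miR-182 and miR-183, had 12 counts in serum and 0 in muscle, and its partners miR-183-5p and miR-182-5p, chosen after their values were seen, had log2 fold changes of 7.35 and 6.76.

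Liver and intestinal miRNAs followed the same order. miR-215-5p, which shares its seed with miR-192-5p, held 10032, 6367, 8217 and 5069 CPM in serum and 3.37, 3.99, 1.42, 1.48 and 1.5 CPM in muscle (log2 11.09 ± 0.40 SE, adjusted p 6.16e-16). miR-192-5p held 23140, 19722, 21176 and 12706 CPM in serum and 58.6, 52.8, 44.6, 41.5 and 42.8 CPM in muscle (304-fold, adjusted p 1.86e-15). miR-122-5p, which hepatocytes make in great excess over other cells, held 1469, 1772, 1780 and 841 CPM in serum and 1.51 to 5.98 CPM in muscle (318-fold, adjusted p 1.39e-13). Its other arm, miR-122-3p, had no count in either source. miR-148a-3p was 14.8-fold higher in serum and ranged from 1530 to 9828 CPM among serum libraries.

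**Figure D3:**
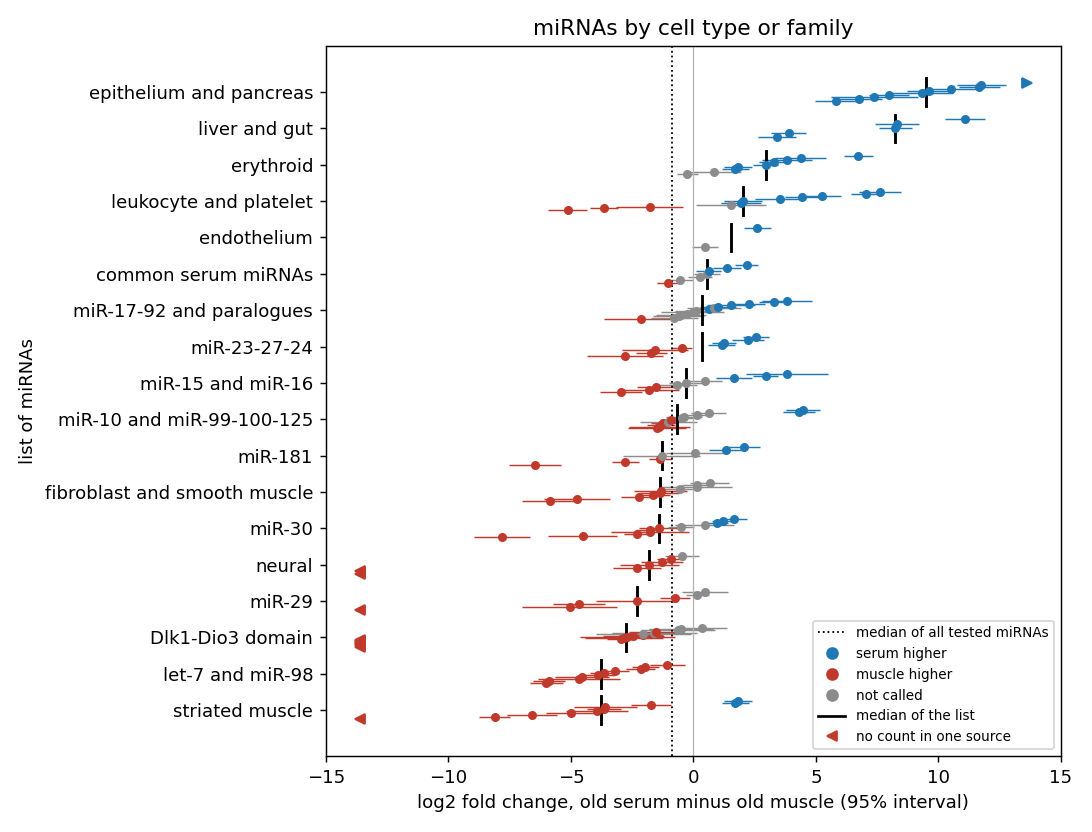
log2 fold change of old serum minus old muscle for each tested member of 18 lists, with its 95% interval, ordered by the list's median (black bar); the dotted line is the median of all 316 tested miRNAs, -0.87, and triangles at the edges mark miRNAs without a count in a source, whose fold change has no finite value. Epithelial, liver and erythroid lists lie to the right and striated muscle, let-7 and Dlk1-Dio3 lists to the left, with miR-486-5p and miR-3107-5p as the right-hand points of the striated muscle row.

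miR-126a-5p and miR-126a-3p, from the endothelial gene Egfl7, gave different calls. The 5p arm was 6.07-fold higher in serum (adjusted p 1.63e-08) and the 3p arm was not called (log2 0.46, 95% interval -0.07 to 0.99). Of 10 fibroblast and smooth muscle miRNAs tested, 6 were higher in muscle, 0 in serum and 4 were not called, a share near the 44.6% of all tested miRNAs that were higher in muscle. With library totals alone, 4 were higher in muscle and 1 in serum. Of 7 neural miRNAs, 6 were higher in muscle, beside 44.6% of all tested, and 4 with library totals alone, where miR-128-3p, the most abundant, was not called (adjusted p 0.195). miR-9-5p held only 16.9 ± 2.92 CPM there and miR-124-3p, the defining neuronal miRNA, had 1 count in all. The thinned libraries left 1 neural miRNA testable and called none, with limits set by serum depth.

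Members of the let-7 family, which hold back proliferation and growth signalling, were higher in muscle without exception among the 10 tested. Of all tested miRNAs, 44.6% were higher in muscle. The family held 7.13% ± 0.540 of muscle counts and 0.806% ± 0.319 of serum counts, at a median log2 fold change of -3.76. The size differed among members that share the seed. let-7a-5p held 16027, 15279, 13892, 16056 and 19549 CPM in muscle and 389, 134, 452 and 465 CPM in serum (64.2-fold, adjusted p 2.67e-13). let-7d-5p was 59.3-fold higher in muscle, and let-7c-5p, the most abundant, 9.16-fold. let-7g-5p, let-7i-5p and miR-98-5p had log2 fold changes of -2.16, -1.97 and -1.06. The sequences differ by few bases, and how reads that match several were assigned is not given, so values of single members are uncertain. With library totals alone 9 of the 10 were called, all higher in muscle.

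Imprinted miRNAs of the Dlk1-Dio3 domain, which are expressed from the maternal chromosome and fall in many tissues after birth, were mostly below the limits of serum. Of 46 in the table, 44 were counted in muscle, 21 in serum and 18 could be tested. Of those, 13 were higher in muscle and 0 in serum, beside 44.6% and 24.7% of all tested. Members near 0 in serum, such as miR-154-5p, could be tested only through muscle, and only as higher there. The direction of their calls was therefore fixed by the filter. miR-127-3p, the most abundant, held 2375, 2178, 2263, 2242 and 3086 CPM in muscle and 377, 207, 576 and 620 CPM in serum (7.67-fold, adjusted p 1.02e-08). miR-154-5p had 483 counts in muscle and 0 in serum, at least 5.86-fold higher against the limit for serum. After thinning, 1 member could be tested.

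Several of the strongest muscle miRNAs lie outside these lists. miR-149-5p, from an intron of the proteoglycan gene Gpc1, held 17671, 18543, 19802, 18305 and 15185 CPM in muscle and 213, 157, 158 and 133 CPM in serum (138-fold, adjusted p 6.41e-15). It ranked 12 in muscle and 111 in serum. miR-196a-5p, encoded in Hox clusters and a repressor of Hox transcripts, held 2391, 3006, 1934, 4245 and 2478 CPM in muscle and had no count in 4 serum libraries. It had 39708 muscle counts and was at least 481-fold higher in muscle against the limit of 3 counts over serum. Its relative miR-196b-5p had 4429 muscle counts and 1 serum count. miR-10a-5p, from the Hoxb cluster that also encodes a copy of miR-196a-5p, differed in the opposite direction.

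miR-490-3p, from an intron of the muscarinic receptor gene Chrm2, held 87.8 to 102 CPM in muscle with no serum count, at least 18.3-fold higher. miR-29b-2-5p, the passenger arm of a miR-29 hairpin, had 466 muscle counts and 0 serum counts. In all, 22 tested miRNAs had no serum count and 74 of the 141 that were higher in muscle had fewer than 10 serum counts, so the sizes of these differences are bounded by serum depth.

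Families did not always move together. In the miR-30 family, which shares a seed and is abundant in many tissues, miR-30a-5p, miR-30d-5p and miR-30e-5p were higher in serum by 1.94-fold, 2.32-fold and 3.14-fold. miR-30c-5p was 4.90-fold higher in muscle, at 12544 ± 3736 CPM against 3311 ± 399 CPM. In the miR-181 family, miR-181a-5p and miR-181b-5p were higher in muscle and miR-181c-5p (log2 2.06) and miR-181d-5p (log2 1.33) higher in serum. miR-148a-3p was higher in serum, and miR-148b-3p, which carries the same seed, 2.38-fold higher in muscle, although its call was lost with library totals alone (adjusted p 0.0545). miR-16-5p was higher in serum and miR-15b-5p 2.92-fold higher in muscle. miR-27a-3p was 2.24-fold higher in serum. miR-27b-3p was called higher in muscle by a small margin (1.40-fold, adjusted p 0.0463), and this call was lost without any of old muscle 1 to 5 or old serum 1, 2 or 4, with adjusted p from 0.0570 to 0.281.

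Among the 33 groups of tested miRNAs that share a seed, 6 held only members higher in serum, 7 only members higher in muscle and 5 held members called both ways. The 6 were miR-10a and miR-10b, miR-146a and miR-146b, miR-192 and miR-215, miR-141 and miR-200a, the miR-200b, miR-200c and miR-429 group, and the miR-130 and miR-301a group. The 5 were the groups of miR-15 and miR-16, miR-27, miR-30, miR-148 and miR-181. The miR-27 group counts among them through miR-27b-3p and the miR-148 group through miR-148b-3p, whose calls were lost with library totals alone (adjusted p 0.888 and 0.0545). Members of a group can share reads where their sequences are close.

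The arms of a hairpin often differed in balance between the sources. Of 75 hairpins with both arms tested, 7 had both arms higher in serum, 13 had both higher in muscle and 12 had arms called in opposite directions. In the 41 hairpins with at least 10 serum counts in every library, the 5p share of the counts did not overlap between the sources for 23. Of these, 12 had a larger 5p share in serum and 11 a smaller one. In 5 of the 23 the major arm itself changed.

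let-7d was one of these. Its 5p arm, the guide strand in most tissues, took 82.3% to 88.8% of the counts of both arms in muscle and 16.1% to 30.9% in serum. The 5p arm of miR-151 took 49.6% to 70.9% in muscle and 2.39% to 11.1% in serum, where miR-151-3p held 4706 ± 835 CPM. The 5p arm of miR-423 took 19.6% to 32.0% in muscle and 60.6% to 74.8% in serum. For miR-142, the 5p arm exceeded the 3p arm 1.13-fold to 3.34-fold in muscle and 70.3-fold to 195-fold in serum. miR-126a-5p exceeded miR-126a-3p 2.78-fold to 5.34-fold in serum, while the ratio was 0.838 to 1.15 in muscle.

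**Figure D4:**
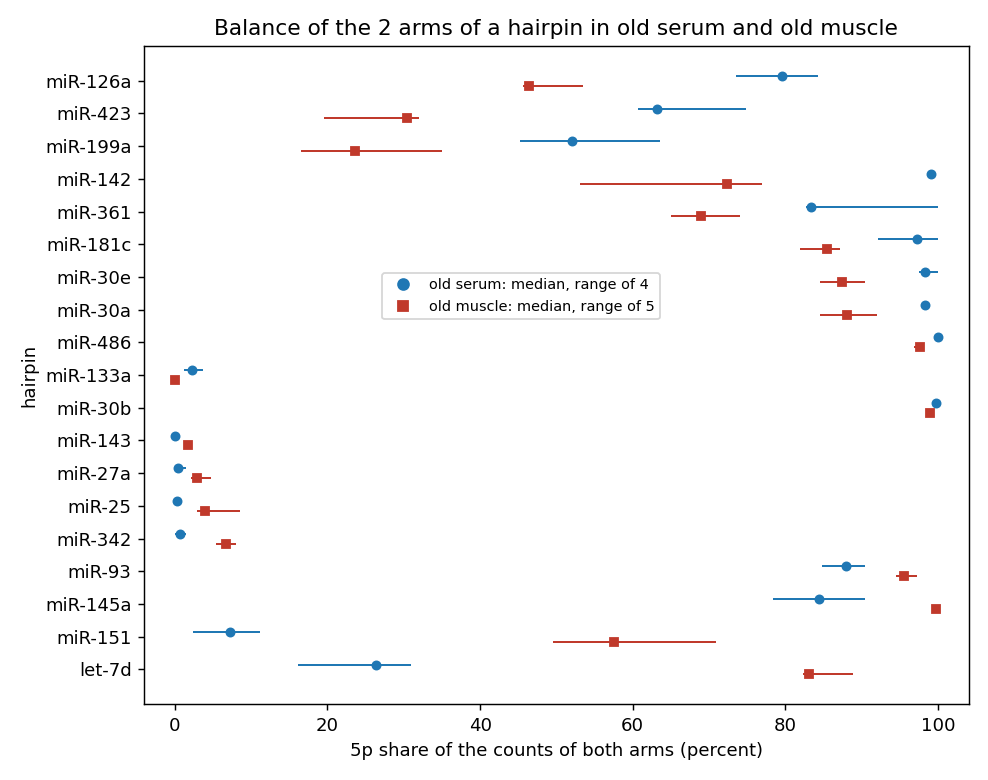
Share of the 5p arm in the counts of both arms (percent) for 19 hairpins whose ranges did not overlap between the sources; circles and squares are medians and lines the range over 4 serum or 5 muscle libraries. The widest gaps are those of let-7d and miR-151, lower in serum, and of miR-126a and miR-423, higher in serum.

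miRNAs of a shared transcript also differed in ratio. miR-143-3p and miR-145a-5p, made from a common smooth muscle transcript, stood at a ratio of 5.97 to 24.5 in serum and 0.0859 to 0.842 in muscle. miR-192-5p and miR-194-5p, which are clustered, stood at a ratio of 96.1 to 302 in serum and 4.19 to 7.0 in muscle. Neither ratio overlapped between the sources.

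Base composition also varied with source, which the choice of libraries did not use. Of the 275 matched miRNAs, 253 had a count in both sources. Among these, adenine made up a median of 28.3% of the bases of 64 serum-higher miRNAs, 19% of 103 muscle-higher miRNAs and 20.8% of 86 that were not called. Across the 253, the adenine content and the log2 fold change had Pearson's r 0.365 and Spearman's rho 0.374. Among the 130 over 100 CPM in either source, r was 0.404 and rho 0.442. These are descriptions across miRNAs, which share libraries, families and depth. G and C content was lower in serum-higher miRNAs (median 45.5% against 50%, r -0.242), and for cytosine alone r was -0.046. Among the sequences above, miR-215-5p and miR-141-3p are rich in adenine and miR-149-5p is poor in it, but others go against the contrast. miR-205-5p, among the most serum-enriched, has little adenine. miR-26a-5p and miR-30c-5p, both called higher in muscle, are rich in it, and miR-26a-5p has as much as miR-141-3p. Extraction and input differed with source, and their part in this pattern was not tested.

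**Figure D5:**
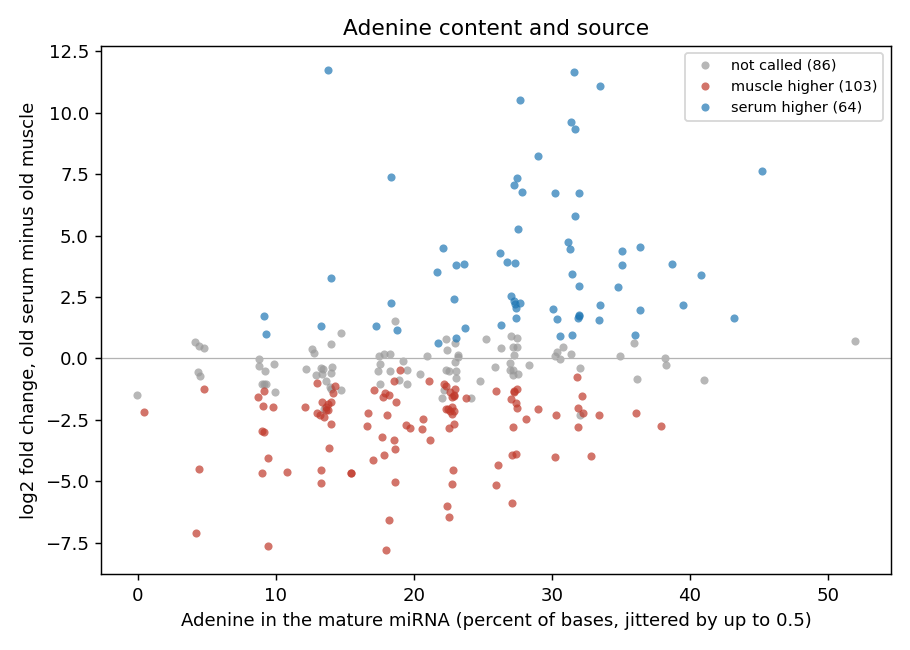
Adenine content of the mature sequence (percent of bases, jittered for display) and log2 fold change of old serum minus old muscle for 253 tested miRNAs with a RefSeq sequence and a count in both sources, coloured by the edgeR call. Serum-higher points gather at higher adenine content than muscle-higher points, with wide overlap.

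The source difference at 24 months was compared with that of the other mice. In the young libraries alone, 145 of 190 tested miRNAs differed between serum and muscle, and 134 were called in both young and old, all with the same sign. Across the 190 miRNAs, the log2 fold changes of old and young had Pearson's r 0.966 and Spearman's rho 0.972, as a description across miRNAs. Disuse libraries gave r 0.973 over 192 miRNAs. In the test of the difference itself, 2 of 241 miRNAs (0.83%) had a source difference in old mice that differed from that in young mice, 0 with a positive and 2 with a negative sign (34 at an unadjusted p under 0.05).

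miR-211-5p, from an intron of the melanocyte gene Trpm1, was one. It had 25.1, 3.84, 39.6 and 0.0 CPM in old serum and 928, 68.4, 183, 44.7 and 87.2 CPM in young serum, where young serum 1 stood apart. In muscle it lay at 5.69 to 12.6 CPM in old mice and 0.0 to 8.88 CPM in young mice. The source difference was lower in old mice by -4.41 ± 0.92 (log2, SE, adjusted p 0.00715), from only 10 counts in old serum, and missed the threshold with the 19 old and young libraries alone (adjusted p 0.0551). miR-15b-5p was the other (log2 -1.60 ± 0.40 SE, adjusted p 0.0391). It held 72.9 to 201 CPM in old serum and 268 to 509 CPM in young serum, and its call was lost without old serum 2 (adjusted p 0.131), young muscle 1 (0.0877), young serum 4 (0.0631) or young serum 5 (0.0503). It was also lost with limma-voom (0.0746), the replicate block (0.0566), thinning (0.0786) and the 19 old and young libraries alone (0.0875).

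Among those that did not pass, miR-192-5p had 12706 to 23140 CPM in old serum and 6317 to 12768 CPM in young serum (log2 of the difference 1.25 ± 0.34 SE, adjusted p 0.0753). miR-10a-5p had 62617 to 129997 CPM in old serum and 19355 to 82630 CPM in young serum (log2 1.66 ± 0.53 SE, adjusted p 0.113). let-7d-3p (log2 1.09, adjusted p 0.0764) and miR-151-5p (log2 -1.67, adjusted p 0.0902) were also near the threshold.

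Against disuse mice, where age and disuse differ together, 3 of 241 miRNAs (1.24%) passed, 1 with a positive sign (0.415%) and 2 with a negative one (0.83%). For miR-205-5p the source difference was larger in old mice (log2 3.28 ± 0.69 SE, adjusted p 0.00820). Its serum ranges were 1312 to 5114 CPM in old and 2390.5 to 4500.2 CPM in disuse mice, and its muscle ranges were 0.0 to 1.35 CPM in old and 1.45 to 15.6 CPM in disuse mice. Its call was lost with limma-voom (adjusted p 0.112) and after thinning (adjusted p 0.558). For miR-196b-5p (log2 -3.77 ± 0.91 SE, adjusted p 0.0251), 1 serum count in old mice stood against 22 in disuse mice. For miR-196a-5p no serum count in old mice stood against 13 in disuse mice (adjusted p 0.0421). These calls rest on a few counts in a source. The miR-196b-5p call was lost without disuse serum 1 or 4 or old serum 1 or 2 (adjusted p 0.0699 to 0.177), and with DESeq2 (0.139), the replicate block (0.0651) and thinning (0.364). That of miR-196a-5p was lost without disuse muscle 2, 3 or 4, disuse serum 1, 3, 4 or 5, old muscle 1, 2 or 4, or any of old serum 1 to 4 (adjusted p 0.0518 to 0.193), and with other size factors (0.0596 and 0.0645), a filter of 10 CPM (0.0635), DESeq2 (0.149), the replicate block (0.0893) and thinning (0.602). With limma-voom none of the 241 passed, with 27 at an unadjusted p under 0.05.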

How the data were processed

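Small RNA libraries of old mouse serum and tibialis anterior muscle were compared through the table of reads per mature miRNA that the authors deposited. Its values are raw counts, not normalized. Reads were aligned with Bowtie to mm10, per the submitters' processing notes; for its version, the miRNA annotation and multi-mapping reads, no detail is given in the sources used here. RNA came from Trizol extracts of muscle and from 300 µl of serum by a serum and plasma kit, and library input was 2 µg of RNA for muscle and 10 ng for serum, with at most 15 PCR cycles and a gel slice of 145 to 160 bp, per the labels' protocols. Libraries carry no molecular identifiers, so floors cover counting error only.

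Of 1183 miRNAs in the deposited counts, the 695 with a value for each of 29 libraries were used. The other 488 rows of the deposited counts hold 28 values, and which library's value is missing in them is not known, so they were left out and read from the right end only as an alternative. Counts of 4 old serum and 5 old muscle libraries were fitted in edgeR 4.0.16 (R 4.3.3) with trimmed mean of M values (TMM) factors, filterByExpr by group, the quasi-likelihood test and Benjamini-Hochberg adjustment over all tested miRNAs, with an adjusted p under 0.05 as the threshold. Differences in the source contrast between old and young or disuse mice were contrasts in a fit of all 29 libraries. CPM are counts scaled to a library total of 1000000. Composition measures were compared by 2-sided exact permutation tests over the 126 ways of dividing 9 libraries into 4 and 5. The fit was tested on simulated counts: for old serum against old muscle it recovered 87.3% of 55 tested miRNAs changed by 2 on the log2 scale, 36.1% of 36 changed by 1, and called 0.893% of 224 unchanged ones. The simulated sources shared an averaged profile apart from changes balanced in direction. These rates therefore do not cover the large difference in composition between the real sources.

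The miRNAs named are the 10 most abundant of each source, the 10 called with the largest log2 fold change in each direction at a mean of at least 100 CPM, the 5 most abundant not called, those with the smallest p for each difference between contrasts, the most abundant members of each list, the 5 most abundant counted in 1 source only, and the cell type markers. Further list and family members (miR-155-5p, miR-342-5p, let-7g-5p, let-7i-5p, miR-98-5p, miR-181b-5p, miR-181c-5p, miR-181d-5p, miR-27a-3p, miR-30a-5p, miR-30e-5p), the partners miR-182-5p and miR-183-5p, and the hairpins and ratios described were chosen after their values were seen, as were the bounds for miRNAs without a count and the restriction of base content to those counted in both sources. Members, lists and rules were chosen with earlier results of these data known. Alternatives were DESeq2 1.42.0, limma 3.58.1 (voom), other scalings and filters, the replicate number as a block, thinning to 45176 counts and leaving out each library.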

Additional observations from a re-analysis of the deposited data

Results flagged for a closer look

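Among 140 groups of 4 or 5 libraries checked for a library that stands apart (the named miRNAs in old serum or old muscle), 11 had one by Dixon's criterion. Chance flags about 1 in 20 groups. In 5 of the 11 the library was old serum 2, each time the lowest: miR-26a-5p at 3912 CPM against 10529 to 11200 in the other serum libraries, let-7c-5p at 1381 CPM against 4103 to 4307, miR-205-5p at 1312 CPM against 4737 to 5114, miR-141-3p at 1519 CPM against 2600 to 2712, and miR-99a-5p at 399 CPM against 1293 to 1395. Old serum 2 was the deepest serum library and had the largest share of miR-486-5p. Without it, 210 of 330 tested miRNAs were called between old serum and old muscle, 76 higher in serum and 134 in muscle.

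In muscle, miR-378a-3p was low in old muscle 3 (35609 CPM against 47944 to 50291) and miR-16-5p low in old muscle 5 (653 CPM against 1181 to 1371). miR-26a-5p was high in old muscle 4 (33086 CPM against 24360 to 26324), let-7d-5p in old muscle 1 (10204 CPM against 8596 to 8992), miR-143-3p in old muscle 1 (6939 CPM against 4095 to 4807) and miR-127-3p in old muscle 5 (3086 CPM against 2178 to 2375).

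The source difference of 5 miRNAs differed from that in younger mice by edgeR's quasi-likelihood test. It was lower in old than in young mice for miR-211-5p (log2 -4.41, adjusted p 0.00715) and miR-15b-5p (log2 -1.60, adjusted p 0.0391). Against disuse mice it was higher for miR-205-5p (log2 3.28, adjusted p 0.00820) and lower for miR-196b-5p (log2 -3.77, adjusted p 0.0251) and miR-196a-5p (fitted log2 -7.13, adjusted p 0.0421; it had no count in old serum, so this value depends on the prior count and is no bound).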

How the results depend on the processing

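The count of 219 miRNAs that differed between old serum and old muscle ranged from 182 to 223 when a library was left out and from 185 to 273 under other scalings, filters, tools and fits, and fell to 96 of 112 tested after thinning. No miRNA called in both reversed under any of these settings. For old minus young, 2 calls became 6 with DESeq2 size factors, 5 with upper-quartile factors, 6 without a filter, 11 with DESeq2, 1 with limma-voom, 0 of 139 after thinning (22 at an unadjusted p under 0.05), 0 of 231 with the 19 old and young libraries (27 at an unadjusted p under 0.05), and 1 to 9 when a library was left out. For old minus disuse, 3 calls became 0 with limma-voom, 1 after thinning (none of the original 3) and 1 to 4 when a library was left out. The cause was not tested. Without miR-133a-3p, miR-486-5p and miR-3107-5p, composition reversed or gained a call: serum minus muscle was 16.6 percentage points for the 5 most abundant, 11.2 for the 10 most abundant, -10.2 for the effective number and -31.9 miRNAs for detection at equal depth (exact permutation tests, adjusted p 0.0278 each). Counts of list members called were recomputed under the same settings, a choice made after seeing the data: epithelial members higher in serum ranged from 5 to 16, let-7 members higher in muscle from 8 to 10 and Dlk1-Dio3 members higher in muscle from 1 to 16, with no call in the other direction. Members near 0 in a source could be called in only 1 direction. A replicate block gave 208 calls for the source comparison, 1 for old minus young and 1 for old minus disuse. Deviations of same-numbered serum and muscle correlated at -0.095 to 0.096, and those of differently numbered ones at -0.247 to 0.246. These values cannot tell whether same-numbered libraries share an animal, because serum and muscle of an animal need not deviate together. Serum depth limits every statement on miRNAs below about 5.33 CPM there.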
